A study of Homo sapiens with 12 samples.

Results

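The 10 genes described here carry glucose into the cell, break it down to pyruvate, turn pyruvate into lactate and carry the lactate out. They were taken by symbol from a table of counts per gene, where all 10 were present among 10945 genes with a symbol. They are the glucose transporters SLC2A1 and SLC2A3, the glycolytic enzymes HK2, ALDOA, ALDOC, PGK1, ENO1 and PKM, the lactate dehydrogenase subunit LDHA and the lactate exporter SLC16A3. All were measured in HepG2, an established human liver cancer line with no engineered genotype in the labels, by QuantSeq, a 3′ mRNA sequencing method that reads near the end of each transcript. Cells kept and seeded in EMEM were moved 24 h later to Plasmax, a medium formulated after human plasma, to high-glucose DMEM (HGDMEM), to low-glucose DMEM (LGDMEM) or to fresh EMEM. Every medium held 10% heat-inactivated serum and was renewed at 48 h, and RNA was taken at 96 h. There were 12 libraries, with 3 per medium. The labels do not say whether those 3 were separate cultures, so a p-value here is set by how much the libraries differed, and that spread can be technical.

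Glycolysis converts glucose to pyruvate in the cytosol and yields a small amount of ATP, and LDHA then reduces pyruvate to lactate, which restores the NAD+ that an earlier step uses. Glucose enters by facilitative carriers of the SLC2A family and is trapped in the cell by a hexokinase, and lactate leaves with a proton through carriers of the SLC16A family. Adult liver relies on glucokinase and the liver form of pyruvate kinase, whereas liver cancer cells use more of the forms found here, several of which are targets of the hypoxia-inducible factor HIF.

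The 12 libraries held 3995365 to 5840057 counts on genes with a symbol, of which the 10 genes made up 0.461% to 0.893%. LGDMEM 3 (the library numbered 3 of LGDMEM) stood apart. Its score on the second principal component was −51.8 and the scores of the other 11 ranged over −11.0 to 14.7, and it had the highest value of all 12 libraries for 8 of the 10 genes, whereas it had the highest value for 10.5% of all genes. Results that rest on it are given with and without it. All 10 hepatocyte markers were measured, with a summed level of 14995 to 16313 CPM (counts scaled to a common library size with TMM factors) in Plasmax, 26257 to 29446 CPM in HGDMEM, 23491 to 27837 CPM in LGDMEM and 25068 to 25394 CPM in EMEM. Of these markers 1 rose and 6 fell in Plasmax against EMEM, 1 rose and 5 fell against HGDMEM, and 2 rose and 5 fell against LGDMEM (1 and 3 without LGDMEM 3). Of all genes tested, 22.1%, 26.9% and 21.2% were called in these comparisons (adjusted p under 0.05), and 20.7% against LGDMEM without LGDMEM 3. Of 6 leukocyte markers 3 were in the table (CD14, CD68 and LYZ), with summed levels of 1966 to 2194 CPM in Plasmax, 2710.2 to 3159 CPM in HGDMEM, 2122 to 2885 CPM in LGDMEM and 2657 to 3294 CPM in EMEM. Of 10 endothelial and stromal markers 2 were in the table (COL1A1 and ACTA2), at 66.7 to 93.0 CPM in Plasmax, 43.7 to 61.7 CPM in HGDMEM, 21.7 to 50.5 CPM in LGDMEM and 38.1 to 52.8 CPM in EMEM. The leukocyte sum is nearly all LYZ (2094 CPM in Plasmax, beside 3.56 CPM of CD14 and 5.77 CPM of CD68), a gene for lysozyme, which other cells also secrete. LYZ fell in Plasmax against HGDMEM and EMEM and was at −0.23 on the log2 scale against LGDMEM (adjusted p = 0.18), whereas CD68 rose against EMEM by 1.37 (adjusted p = 0.0333). The stromal sum is mostly ACTA2 (71.6 CPM in Plasmax, beside 8.88 CPM of COL1A1). ACTA2 rose against LGDMEM (1.14) and EMEM (0.81) and was not called against HGDMEM (0.53, adjusted p = 0.105). COL1A1 was called against HGDMEM alone (2.75, adjusted p = 0.0168). In every Plasmax library the hepatocyte sum was lower and the stromal sum higher than in all other libraries. The leukocyte sum there was lower than in HGDMEM and EMEM and overlapped with LGDMEM. The part of these markers in the results was not tested.

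The promoters of the genes are shown because several of them moved together between media. In RefSeq sequence of build GRCh38.p14 (the submitters' notes name an older build, hg19/GRCh37), 9 of the 10 genes matched, with 17 windows of the 250 bases before a start site. Each window was searched on both strands for ACGTG and GCGTG, the core letters of the HIF response element, and for CACGTG, the E-box core read by MYC and by the glucose-responsive factor MLXIPL. Every CACGTG contains ACGTG on each strand and is counted there as well. Capitals mark the matches, so CACGT and CACGC are matches on the opposite strand. ALDOC and LDHA are genes that were lower in Plasmax, PGK1 is a neighbouring step that was lower against LGDMEM, and SLC2A1 was higher.
ALDOC, chr17:28576896-28577145, minus strand: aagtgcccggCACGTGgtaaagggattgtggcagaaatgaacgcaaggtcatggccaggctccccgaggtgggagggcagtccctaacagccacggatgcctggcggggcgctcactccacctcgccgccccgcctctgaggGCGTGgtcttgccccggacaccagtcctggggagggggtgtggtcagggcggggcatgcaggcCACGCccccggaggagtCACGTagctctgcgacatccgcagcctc
LDHA, the first of its windows, chr11:18394313-18394562, plus strand: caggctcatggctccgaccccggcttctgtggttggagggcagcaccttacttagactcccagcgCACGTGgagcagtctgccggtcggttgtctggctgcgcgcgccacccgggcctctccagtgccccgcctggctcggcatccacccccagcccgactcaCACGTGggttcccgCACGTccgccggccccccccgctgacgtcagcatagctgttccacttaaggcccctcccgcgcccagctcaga
PGK1, chrX:78103998-78104247, plus strand: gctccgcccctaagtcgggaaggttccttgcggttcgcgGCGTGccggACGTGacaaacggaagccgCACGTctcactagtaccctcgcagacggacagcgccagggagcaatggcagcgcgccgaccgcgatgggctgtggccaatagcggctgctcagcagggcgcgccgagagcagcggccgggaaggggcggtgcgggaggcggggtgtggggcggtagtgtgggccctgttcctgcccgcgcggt
SLC2A1, chr1:42958869-42959118, minus strand: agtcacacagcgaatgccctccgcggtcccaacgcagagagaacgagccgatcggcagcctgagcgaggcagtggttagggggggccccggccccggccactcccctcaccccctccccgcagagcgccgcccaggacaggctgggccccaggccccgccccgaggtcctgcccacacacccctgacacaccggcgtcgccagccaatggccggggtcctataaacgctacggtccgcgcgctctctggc
The ALDOC window held 3 matches to ACGTG, 2 to GCGTG and 1 to CACGTG. The LDHA window held 5 matches to ACGTG and 2 to CACGTG, and the PGK1 window held 2 matches to ACGTG and 1 to GCGTG. The SLC2A1 window held none of these letters. Of genes not called in any Plasmax comparison, HK2 had a window with 4 matches to ACGTG, 2 to GCGTG and 2 to CACGTG, and the PKM window held none. Of the 17 windows, 13 held ACGTG or GCGTG and 4 held CACGTG, and among all 35116 windows of the same length these shares were 43.2% and 6.34%. The genes' windows were also richer in G and C, with a median of 68.4% against 58% in all windows. A match describes these letters only.

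Cells in Plasmax had more SLC2A1 and less SLC2A3, ALDOA, ALDOC, LDHA and SLC16A3 than cells in each of the other media, and ENO1 and PKM were not called in any comparison. Against EMEM 1 gene rose and 5 fell, where 22.1% of all genes tested were called (10.0% higher and 12.1% lower; edgeR's quasi-likelihood test over all genes, Benjamini-Hochberg adjustment at 0.05). Against HGDMEM the same 6 genes were called in the same directions, with 26.9% of all genes called (12.8% higher and 14.1% lower). Against LGDMEM 1 rose and 6 fell, PGK1 being the additional one, with 21.2% of all genes called (9.48% higher and 11.7% lower). The median log2 fold change of the 10 genes was −0.70 against EMEM, −0.47 against HGDMEM and −1.07 against LGDMEM, where the medians of all genes were 0.02, 0.01 and 0.00. Without LGDMEM 3 the number of genes called was 7 against EMEM, 8 against HGDMEM and 7 against LGDMEM, with 24.3%, 28.9% and 20.7% of all genes called, and the median of the 10 genes against LGDMEM was −0.69. Plasmax libraries did not overlap with those of the other medium for 7 of the 10 genes against EMEM, 8 against HGDMEM and 7 against LGDMEM, where 39.4%, 42.6% and 36.2% of all genes had no overlap. The 3 comparisons share the Plasmax libraries, so they are not independent of each other. In a bulk sample, fewer cells that express a gene and less of its RNA per cell cannot be told apart.

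**Figure D1:**
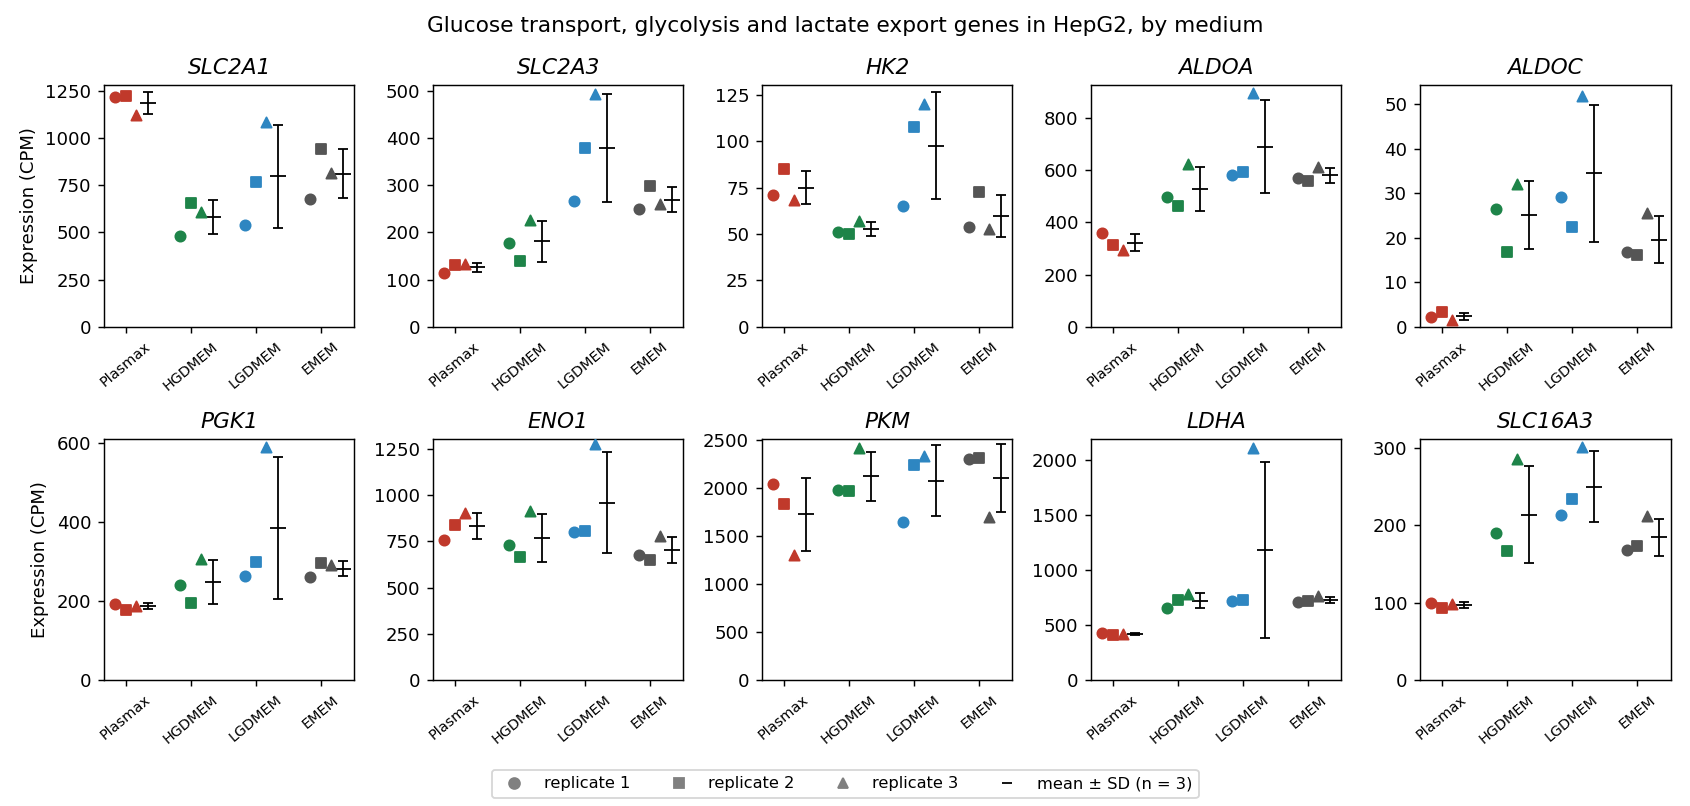
Level of each of the 10 genes in CPM (vertical axis, from 0) in every library, by medium, with a point per library and the mean ± SD of 3 beside the points. In Plasmax SLC2A1 lies between 1119 and 1222 CPM, above all other libraries, while ALDOC lies between 1.45 and 3.22 CPM, below all others.

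SLC2A1 (GLUT1), the widely expressed carrier of basal glucose uptake, was highest in Plasmax. It had 1213, 1222 and 1119 CPM in Plasmax, against 480.3, 657 and 608 CPM in HGDMEM, 539, 765 and 1082 CPM in LGDMEM and 677, 938 and 816 CPM in EMEM. All 3 Plasmax libraries lay above the 9 others, of which LGDMEM 3 came nearest. The log2 fold change was 1.03 (SE 0.19, adjusted p = 0.000553) against HGDMEM, 0.57 (SE 0.19, adjusted p = 0.035) against LGDMEM and 0.55 (SE 0.19, adjusted p = 0.0423) against EMEM. The call against HGDMEM held in all 22 settings tried. The call against EMEM was lost when any 1 of 7 libraries was left out (LGDMEM 2, HGDMEM 3, EMEM 1, EMEM 3 or any Plasmax library; adjusted p between 0.0506 and 0.178), and that against LGDMEM when any 1 of 5 was left out (LGDMEM 1, LGDMEM 2 or any Plasmax library; adjusted p between 0.0633 and 0.151). The call against EMEM was also lost with rows without a symbol kept (adjusted p = 0.0571), and that against LGDMEM with the libraries of these 2 media alone (adjusted p = 0.0628). Without LGDMEM 3 the change against LGDMEM was 0.86 (adjusted p = 0.000775).

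SLC2A3 (GLUT3), a carrier of high glucose affinity best known from neurons, moved the other way. It had 114, 131 and 132 CPM in Plasmax, against 178, 139.7 and 227 CPM in HGDMEM, 266, 379 and 494 CPM in LGDMEM and 250, 299 and 259 CPM in EMEM. The Plasmax libraries were the lowest and the HGDMEM libraries came next, and neither group overlapped with EMEM. The log2 fold change in Plasmax was −1.59 (SE 0.19, adjusted p = 1.52e-05) against LGDMEM and −1.10 (SE 0.19, adjusted p = 0.00052) against EMEM. Against HGDMEM it was −0.53 (SE 0.19, adjusted p = 0.0486), and that call was lost when any 1 of 9 libraries was left out (every library of Plasmax and EMEM, LGDMEM 2, HGDMEM 1 or HGDMEM 3; adjusted p between 0.0518 and 0.258), with rows without a symbol kept (adjusted p = 0.0541) and by limma voom (adjusted p = 0.0749). SLC2A14 is nearly identical in sequence to SLC2A3, and its count was 6.02 ± 0.51% of the pair's in Plasmax, 4.75 ± 0.48% in HGDMEM, 3.20 ± 0.22% in LGDMEM and 2.83 ± 1.08% in EMEM (SD, n = 3 each), so reads assigned between them are uncertain.

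Set side by side, these carriers held different shares in Plasmax than in the other media. SLC2A1 held 90.4 ± 1.0% of the counts of the pair in Plasmax, 76.1 ± 5.5% in HGDMEM, 67.5 ± 1.0% in LGDMEM and 74.9 ± 1.6% in EMEM (SD, n = 3 each). Each Plasmax library, at 89.4% to 91.4%, lay above every other library, of which the highest was 82.5%. Counts at the 3′ end are not divided by gene length here, and the shares describe counts and not protein.

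HK2, the hexokinase that phosphorylates glucose and can bind mitochondria, was not called in any Plasmax comparison. It had 71.3, 85.1 and 68.4 CPM in Plasmax, against 51.4, 50 and 56.9 CPM in HGDMEM, 65.1, 108 and 120.2 CPM in LGDMEM and 53.6, 72.8 and 52.8 CPM in EMEM. The Plasmax values lay above those of HGDMEM and overlapped with those of LGDMEM and EMEM. The log2 fold change was 0.51 against HGDMEM (95% interval 0.09 to 0.92, adjusted p = 0.0644), −0.38 against LGDMEM (adjusted p = 0.177) and 0.32 against EMEM (adjusted p = 0.259). It passed against HGDMEM with LGDMEM 1 (adjusted p = 0.0195) or LGDMEM 3 (adjusted p = 0.0437) left out, and against LGDMEM without LGDMEM 1 (adjusted p = 0.0193). HKDC1, a related hexokinase domain protein, was also measured, and HK2 held 61.5 ± 5.8% of the counts of both in Plasmax, 50.3 ± 1.1% in HGDMEM, 59.5 ± 3.8% in LGDMEM and 64.97 ± 9.17% in EMEM (SD, n = 3 each).

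The aldolases, which split fructose 1,6-bisphosphate into a pair of triose phosphates, both fell in Plasmax. ALDOA, the muscle and general form, had 358, 313 and 294 CPM in Plasmax, against 496, 462 and 625 CPM in HGDMEM, 582, 591 and 896 CPM in LGDMEM and 569, 559 and 613 CPM in EMEM. No Plasmax library reached the lowest library of another medium. Its log2 fold change was −0.71 (SE 0.16, adjusted p = 0.00242) against HGDMEM, −1.10 (SE 0.16, adjusted p = 8.42e-05) against LGDMEM and −0.85 (SE 0.16, adjusted p = 0.000811) against EMEM.

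ALDOC, the form best known from brain, had the greatest fold change of the 10 genes in each Plasmax comparison. It had 2.27, 3.22 and 1.45 CPM in Plasmax, which were 11, 17 and 7 counts. It had 26.4, 16.9 and 32.1 CPM in HGDMEM, 29.3, 22.4 and 51.8 CPM in LGDMEM and 16.7, 16.2 and 25.7 CPM in EMEM. The highest Plasmax library was far below the lowest of the other 9. The log2 fold change was −3.41 (SE 0.39, adjusted p = 5.84e-06) against HGDMEM, −3.87 (SE 0.39, adjusted p = 1.93e-06) against LGDMEM and −3.05 (SE 0.40, adjusted p = 3.09e-05) against EMEM. These are levels 10.7, 14.7 and 8.31 times lower in Plasmax. Of the counts of both aldolases, ALDOC held 0.713 ± 0.274% in Plasmax, 4.49 ± 0.84% in HGDMEM, 4.64 ± 0.92% in LGDMEM and 3.23 ± 0.68% in EMEM (SD, n = 3 each). In single Plasmax libraries the share was 0.629%, 1.02% and 0.489%, with exact 95% binomial intervals of 0.314% to 1.12%, 0.595% to 1.63% and 0.197% to 1.01%, which cover counting error only.

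**Figure D2:**
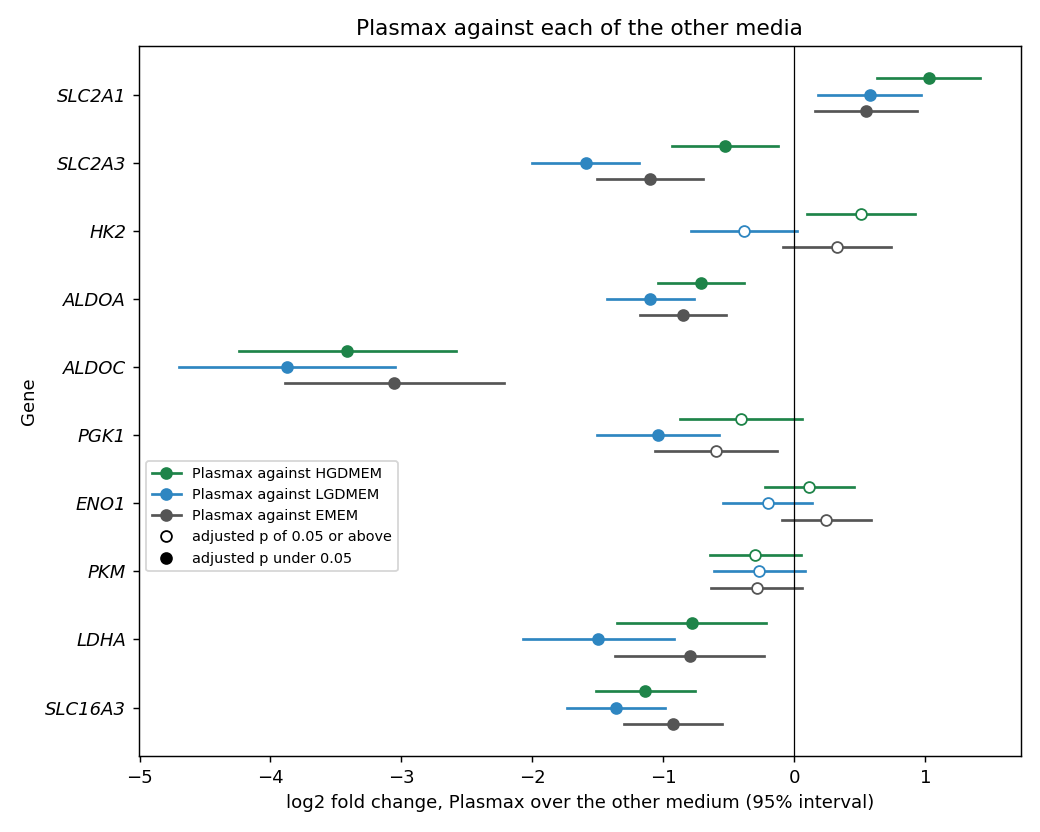
Log2 fold change of each gene in Plasmax against HGDMEM, LGDMEM and EMEM, with 95% intervals; filled points passed the adjusted p of 0.05. SLC2A1 lies right of 0 in all 3 comparisons and ALDOC lies farthest left, at −3.41, −3.87 and −3.05, while ENO1 and PKM stay near 0.

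PGK1, ENO1 and PKM catalyse 3 of the later steps on the way from triose phosphate to pyruvate. PGK1, which makes the first ATP of the pathway, had 193, 179 and 189 CPM in Plasmax, against 241, 197 and 307 CPM in HGDMEM, 265, 298 and 590.5 CPM in LGDMEM and 261, 296 and 291 CPM in EMEM. All Plasmax values lay below all others, although HGDMEM 2 was close to the highest of them. PGK1 fell against LGDMEM by 1.04 on the log2 scale (SE 0.22, adjusted p = 0.00273) and was at −0.60 against EMEM (adjusted p = 0.0626) and −0.41 against HGDMEM (adjusted p = 0.191). Without LGDMEM 3 these were −0.59 (adjusted p = 0.00838), −0.60 (adjusted p = 0.0035) and −0.41 (adjusted p = 0.0299), all past the threshold, and without LGDMEM 1 the change against EMEM also passed (adjusted p = 0.0294).

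ENO1, the enolase that makes phosphoenolpyruvate, had 759.6, 839 and 900.2 CPM in Plasmax, against 729.9, 665 and 913 CPM in HGDMEM, 799.6, 804 and 1272 CPM in LGDMEM and 678, 652 and 780.0 CPM in EMEM. Plasmax overlapped with each other medium. Its log2 fold change in Plasmax was 0.12 (95% interval −0.22 to 0.46) against HGDMEM, −0.20 (−0.54 to 0.14) against LGDMEM and 0.24 (−0.10 to 0.58) against EMEM. PKM, the pyruvate kinase of most tissues and the most abundant of the 10 genes in CPM, had 2043, 1829 and 1301 CPM in Plasmax, against 1976, 1972 and 2416 CPM in HGDMEM, 1650.0, 2241 and 2332 CPM in LGDMEM and 2298, 2314 and 1695 CPM in EMEM. Its groups overlapped too, with log2 fold changes of −0.30 (−0.65 to 0.05), −0.27 (−0.61 to 0.08) and −0.29 (−0.63 to 0.06) against HGDMEM, LGDMEM and EMEM. PKM held 99.9% of the counts of PKM and PKLR, the liver form, in Plasmax, 99.8% in HGDMEM, 99.9% in LGDMEM and 99.9% in EMEM. ENO1 held 96.2% of the counts of the 3 enolases in Plasmax, 95.7% in HGDMEM, 95.4% in LGDMEM and 94.7% in EMEM. The counts are per gene and do not tell splice forms of PKM apart.

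LDHA, the subunit of lactate dehydrogenase that favours making lactate, fell in Plasmax against each medium. It had 425, 414 and 419 CPM in Plasmax, against 653, 726 and 785 CPM in HGDMEM, 716, 727 and 2105 CPM in LGDMEM and 712, 715 and 764 CPM in EMEM. The Plasmax libraries lay close together below all others, and LGDMEM 3 alone lay far above the rest. The log2 fold change was −0.78 (SE 0.27, adjusted p = 0.0398) against HGDMEM, −1.496 (SE 0.28, adjusted p = 0.00081) against LGDMEM and −0.80 (SE 0.27, adjusted p = 0.0412) against EMEM. Without LGDMEM 3 these became −0.79 (adjusted p = 5.62e-06), −0.78 (adjusted p = 2.81e-05) and −0.80 (adjusted p = 6.64e-06). With it kept, the call against EMEM was lost when any single library of Plasmax or EMEM was left out (adjusted p between 0.0738 and 0.105). The call against HGDMEM was lost when any single library of Plasmax or HGDMEM, or EMEM 1, was left out (adjusted p between 0.05 and 0.111). DESeq2 called LDHA neither against HGDMEM (adjusted p = 0.136) nor against EMEM (adjusted p = 0.14), and the call against EMEM was lost with rows without a symbol kept (adjusted p = 0.0526).

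SLC16A3 (MCT4), the lactate exporter of strongly glycolytic cells, also fell against each medium. It had 99.3, 93.3 and 99.2 CPM in Plasmax, against 190.0, 167 and 286 CPM in HGDMEM, 214, 235 and 302 CPM in LGDMEM and 168, 174 and 212 CPM in EMEM. Every library outside Plasmax lay well above those in Plasmax. The log2 fold change was −1.14 (SE 0.18, adjusted p = 0.000137) against HGDMEM, −1.36 (SE 0.18, adjusted p = 3.64e-05) against LGDMEM and −0.92 (SE 0.18, adjusted p = 0.00119) against EMEM. SLC16A1 (MCT1), its relative that carries lactate in either direction, was not called, with log2 fold changes of 0.11 (95% interval −0.12 to 0.34), 0.20 (−0.03 to 0.44) and −0.04 (−0.27 to 0.20). SLC16A3 thus held 27.6 ± 2.6% of the counts of both carriers in Plasmax, 46.8 ± 5.9% in HGDMEM, 52.6 ± 4.4% in LGDMEM and 41.2 ± 3.2% in EMEM (SD, n = 3 each). BSG, the chaperone that brings both carriers to the membrane, was not called either, with log2 fold changes of 0.30, 0.19 and 0.22.

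**Figure D3:**
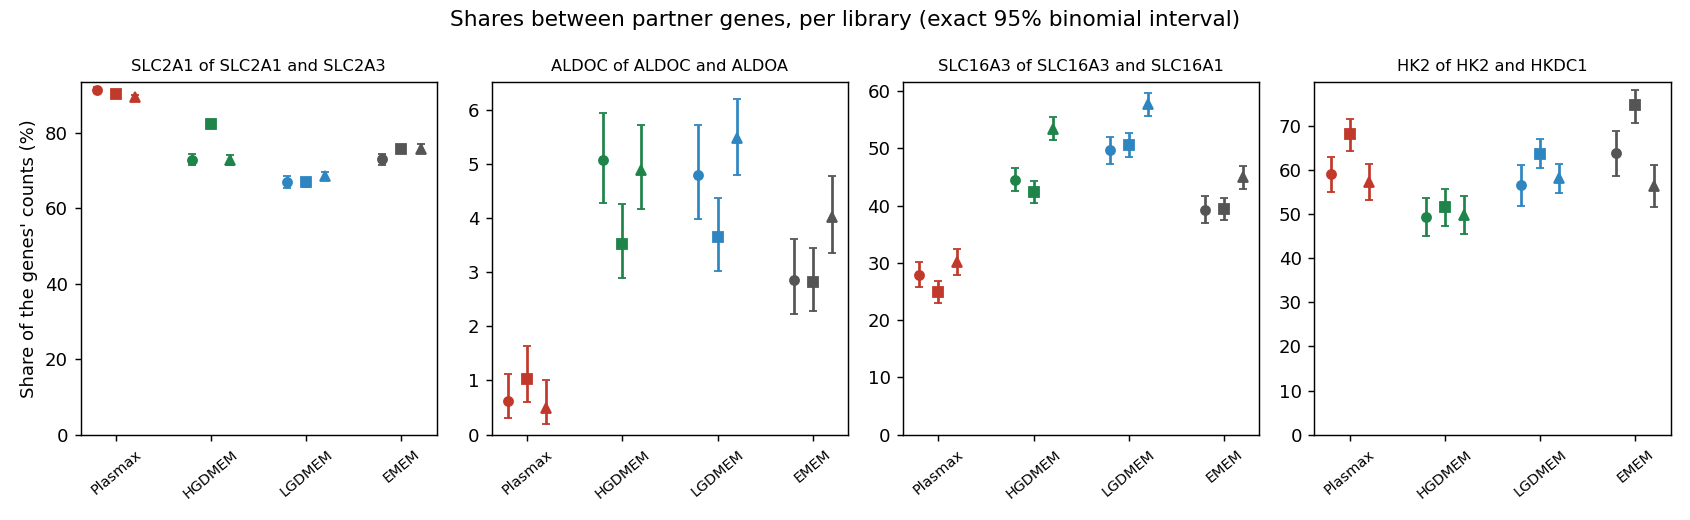
Share of counts (percent) held by SLC2A1 of SLC2A1 and SLC2A3, by ALDOC of both aldolases, by SLC16A3 of SLC16A3 and SLC16A1, and by HK2 of HK2 and HKDC1, in every library by medium, with exact 95% binomial intervals. The Plasmax libraries stand above all others for SLC2A1 (89.4% to 91.4%) and below all others for ALDOC (0.489% to 1.02%) and SLC16A3 (24.9% to 30.1%), and overlap with LGDMEM and EMEM for HK2.

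The falls of SLC2A3, ALDOA, ALDOC and SLC16A3 against LGDMEM and against EMEM, and those of ALDOA, ALDOC and SLC16A3 against HGDMEM, passed in all 22 settings tried, as did those of PGK1 and LDHA against LGDMEM. In a test over the 4 media together 8 of the 10 genes were called, all but ENO1 (adjusted p = 0.182) and PKM (adjusted p = 0.438), with 22.9% of all genes called. ALDOA, PGK1 and LDHA took the media in the order Plasmax, HGDMEM, EMEM, LGDMEM from low to high. For PGK1 and LDHA the place of LGDMEM rests on LGDMEM 3, without which their means were 281.5 and 721.2 CPM in LGDMEM, just below the 282.5 and 730.0 CPM of EMEM. ALDOC and SLC16A3 had the order Plasmax, EMEM, HGDMEM, LGDMEM. In these 5 genes only the step above Plasmax was free of overlap between neighbouring media. SLC2A3 had the same order as ALDOA, and its steps from Plasmax to HGDMEM and from HGDMEM to EMEM were both free of overlap. SLC2A1 had the order HGDMEM, LGDMEM, EMEM, Plasmax, and only its last step was free of overlap.

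High-glucose and low-glucose DMEM differed in SLC2A3, which was lower in HGDMEM. Between HGDMEM and LGDMEM 1 of the 10 genes was called, where 0.0640% of all genes were called. At an unadjusted p under 0.05 there were 6 of the 10 genes, and 7.86% of all genes. SLC2A3 had 178, 139.7 and 227 CPM in HGDMEM, against 266, 379 and 494 CPM in LGDMEM, without overlap, and fell by 1.07 on the log2 scale (SE 0.19, adjusted p = 0.0401). That call was lost when any 1 of 10 libraries was left out (all but LGDMEM 1 and HGDMEM 3; adjusted p between 0.0589 and 0.215), with a change of −0.83 and an adjusted p of 0.128 without LGDMEM 3. HK2 had 51.4, 50 and 56.9 CPM in HGDMEM, against 65.1, 108 and 120.2 CPM in LGDMEM. These did not overlap either, with a log2 fold change of −0.89 (SE 0.20, adjusted p = 0.119). HK2 passed without LGDMEM 1 (−1.11, adjusted p = 0.00192), where 1.08% of all genes were called. Non-overlap in either direction was found for 2 of the 10 genes and for 11.7% of all genes. LDHA was at −0.71 (adjusted p = 0.501) with all libraries and at 0.00 without LGDMEM 3, and the median of the 10 genes was −0.46 with all libraries and −0.11 without LGDMEM 3.

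Between LGDMEM and EMEM 0 of the 10 genes were called by edgeR, by DESeq2 or by limma voom, where edgeR called 0.0731% of all genes. At an unadjusted p under 0.05 there were 6 of the 10 genes, and 7.91% of all genes. HK2 came nearest, with 65.1, 108 and 120.2 CPM in LGDMEM, against 53.6, 72.8 and 52.8 CPM in EMEM. Its log2 fold change was 0.71 (SE 0.20, adjusted p = 0.238). It passed without LGDMEM 1 (0.93, adjusted p = 0.0109), where 0.795% of all genes were called. No overlap was found for 2 of the 10 genes and for 12.0% of all genes, in either direction. The median log2 fold change of the 10 genes was 0.45, and 0.10 without LGDMEM 3. LDHA was at 0.70 (95% interval 0.13 to 1.26) and PGK1 at 0.44 (−0.02 to 0.91), and without LGDMEM 3 LDHA was at −0.02 and PGK1 at −0.00.

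Between HGDMEM and EMEM 0 of the 10 genes were called by these 3 tools as well, where edgeR called 0.164% of all genes. At an unadjusted p under 0.05 there were 2, SLC2A3 at −0.57 (95% interval −0.97 to −0.17, adjusted p = 0.389) and SLC2A1 at −0.48 (−0.87 to −0.09, adjusted p = 0.507), and 7.58% of all genes. SLC2A3 had 178, 139.7 and 227 CPM in HGDMEM, against 250, 299 and 259 CPM in EMEM. SLC2A1 had 480.3, 657 and 608 CPM in HGDMEM, against 677, 938 and 816 CPM in EMEM. Both genes were lower in every HGDMEM library than in any EMEM library, and 15.0% of all genes had no overlap in either direction.

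**Figure D4:**
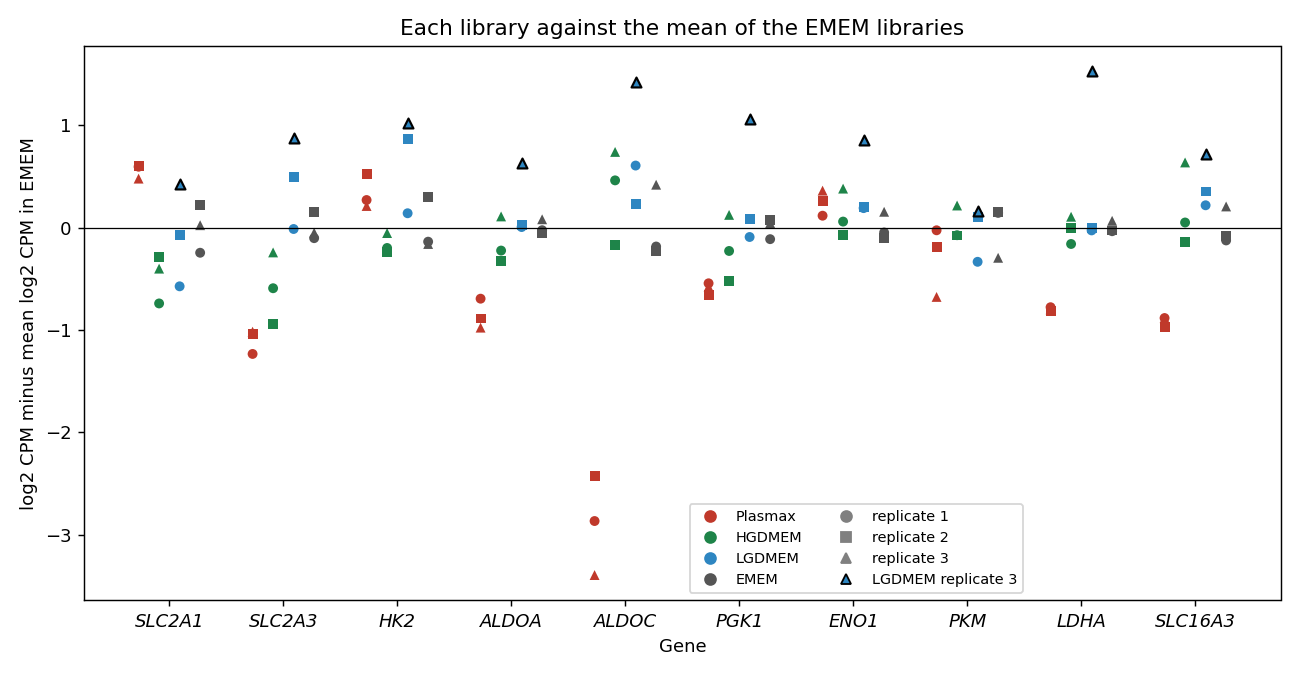
Log2 CPM of each library minus the mean log2 CPM of the 3 EMEM libraries (vertical axis), by gene, with colours for the media and shapes for the replicate numbers. In Plasmax ALDOC is far below 0 and SLC2A1 above 0 in all 3 libraries, and LGDMEM 3, outlined in black, is the highest of the 12 libraries for 8 of the 10 genes.

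The 10 genes stood out to different degrees in LGDMEM 3. Against the mean of LGDMEM 1 and LGDMEM 2 its level was 2.92 times as high for LDHA, 2.10 times for PGK1 and 2.01 times for ALDOC, and 1.199 times for PKM, the lowest ratio. The summed level of 24 measured HIF targets outside glycolysis was 1188, 1998 and 3265 CPM in the libraries of LGDMEM, against 977 to 1624 CPM over the other 9 libraries. LGDMEM 3 was again the highest. Its part in the levels of the 10 genes beyond these values was not tested.

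Among themselves, the 5 genes that fell in every Plasmax comparison (SLC2A3, ALDOA, ALDOC, LDHA and SLC16A3) had Pearson correlations of log2 CPM of 0.78 to 0.95 over 12 libraries, for 10 pairs. The points share the medium, so the same pairs were also described over the 9 libraries outside Plasmax, where r was 0.51 to 0.89, and over 8 without LGDMEM 3, where it was 0.07 to 0.82. SLC2A1 correlated with these genes at −0.64 to −0.18 over 12 libraries, at 0.16 to 0.71 over the 9 outside Plasmax, and at −0.55 to 0.52 over the 8 without LGDMEM 3. Among the 5852 genes that averaged 20 CPM or more, those most like the mean of the 5 genes over 12 libraries were APOA2 (r = 0.97), an apolipoprotein of high-density lipoprotein, GNPNAT1 (0.97), an enzyme of hexosamine synthesis, P4HB (0.96), a protein disulphide isomerase, PREB (0.96), which acts in export from the endoplasmic reticulum, and BNIP3 (0.95), a mitophagy receptor. Those most like SLC2A1 were CLCN3 (0.97), a chloride-proton exchanger, GABARAPL1 (0.97), an autophagy protein, and ASPH (0.96), an aspartate hydroxylase.

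Around these 10 genes, 40 further genes of glucose transport, glycolysis and pyruvate and lactate handling were measured. In Plasmax 10 fell against EMEM, 15 against HGDMEM and 14 against LGDMEM, and none rose, with 25%, 37.5% and 35.0% called, beside the 22.1%, 26.9% and 21.2% of all genes given above. DESeq2 called 11, 16 and 14 of them (24.6%, 28.9% and 23.5% of all genes), and limma voom 10, 12 and 13 (21.6%, 27.7% and 20.4%). Without LGDMEM 3 edgeR called 13, 16 and 13 of them (24.3%, 28.9% and 20.7% of all genes). In that setting HKDC1 rose against EMEM (log2 fold change 0.55, adjusted p = 0.0421), and all others called fell. With all libraries, the median log2 fold changes of the 40 genes were −0.41, −0.47 and −0.50. By edgeR none was called among HGDMEM, LGDMEM and EMEM. The number with an unadjusted p under 0.05 was 8 for LGDMEM against EMEM, 5 for HGDMEM against EMEM and 6 for HGDMEM against LGDMEM (7.91%, 7.58% and 7.86% of all genes). DESeq2 called 1 in each of these comparisons (0.594%, 0.621% and 0.503% of all genes) and limma voom 0.

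Of the 7 other glucose transporter genes 2 fell against EMEM, 1 against HGDMEM and 1 against LGDMEM. That is 28.6%, 14.3% and 14.3% called, beside 22.1%, 26.9% and 21.2% of all genes. SLC2A4 (GLUT4), the insulin-responsive carrier of muscle and fat, fell at low levels, with 7.22 CPM in Plasmax, against 16.7 CPM in LGDMEM (log2 fold change −1.196, adjusted p = 0.0205) and 15.5 CPM in EMEM (−1.09, adjusted p = 0.031). SLC2A2 (GLUT2), the main carrier of adult hepatocytes, averaged 20.1 ± 3.2 CPM in Plasmax, 13.3 ± 3.3 CPM in HGDMEM, 13.6 ± 3.1 CPM in LGDMEM and 17.1 ± 3.1 CPM in EMEM (SD, n = 3 each) and was not called. SLC2A14 was not called either.

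Of 10 upper-step genes 1 fell against EMEM, 3 against HGDMEM and 3 against LGDMEM, beside 22.1%, 26.9% and 21.2% of all genes called. The share of this list called was below that of all genes against EMEM, near it against HGDMEM and above it against LGDMEM. GPI, which converts glucose 6-phosphate to fructose 6-phosphate, fell in all 3 comparisons, with log2 fold changes of −0.42 against HGDMEM (adjusted p = 0.0149), −0.59 against LGDMEM (adjusted p = 0.00185) and −0.44 against EMEM (adjusted p = 0.0131). PFKFB3, which makes the fructose 2,6-bisphosphate that activates phosphofructokinase, averaged 1.67 ± 0.17 CPM in Plasmax, 6.58 ± 5.47 CPM in HGDMEM, 29.5 ± 21.2 CPM in LGDMEM and 5.26 ± 2.85 CPM in EMEM (SD, n = 3 each). It fell against LGDMEM by 4.13 on the log2 scale (SE 0.66, adjusted p = 0.000227) and against HGDMEM by 1.94 (SE 0.68, adjusted p = 0.0418), and was at −1.66 against EMEM (adjusted p = 0.0946). Its libraries in LGDMEM ranged widely, between 8.08 and 50.5 CPM, and without LGDMEM 3 it fell against LGDMEM by 3.50 (adjusted p = 0.000828). Its relative PFKFB4, named after its values were seen, was at −2.23 (adjusted p = 0.0119) against HGDMEM, −3.13 (adjusted p = 0.00141) against LGDMEM and −1.62 (adjusted p = 0.0753) against EMEM. HKDC1, PFKL and PFKP, a hexokinase-like enzyme and both measured subunits of phosphofructokinase, were not called in any comparison with all libraries. Without LGDMEM 3, HKDC1 rose against EMEM (0.55, adjusted p = 0.0421) and PFKL fell against HGDMEM (−0.435, adjusted p = 0.0488). HK1, PFKM and LDHB were not analysed here.

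Of 8 genes of the lower steps 2 fell against EMEM, 4 against HGDMEM and 2 against LGDMEM (1 without LGDMEM 3). Among all genes 22.1%, 26.9% and 21.2% were called in these comparisons (20.7% against LGDMEM without LGDMEM 3). With all libraries, the share of this list called was near that of all genes against EMEM and LGDMEM and above it against HGDMEM. PGAM1, phosphoglycerate mutase, averaged 5.50 CPM in Plasmax, 13.3 CPM in HGDMEM, 13.4 CPM in LGDMEM and 12.98 CPM in EMEM, with log2 fold changes of −1.26 (adjusted p = 0.0287), −1.28 (adjusted p = 0.0331) and −1.24 (adjusted p = 0.0376). Without LGDMEM 3 it was at −1.12 against LGDMEM (adjusted p = 0.0896). TPI1, which interconverts the triose phosphates, fell against HGDMEM (−0.55, adjusted p = 0.0145) and LGDMEM (−0.60, adjusted p = 0.011) and was at −0.37 against EMEM (adjusted p = 0.104). ENO3, the muscle enolase, fell against HGDMEM (−1.0, adjusted p = 0.0489) and EMEM (−1.08, adjusted p = 0.0408) and was at −0.64 against LGDMEM (adjusted p = 0.239). GAPDH, which stands between TPI1 and PGK1 in the pathway, was not called, at 0.28 (95% interval −0.26 to 0.82), −0.40 (−0.94 to 0.14) and −0.50 (−1.04 to 0.04) against HGDMEM, LGDMEM and EMEM. ENO2 and PKLR were not called.

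Of 15 genes of lactate and pyruvate handling 5 fell against EMEM, 7 against HGDMEM and 8 against LGDMEM. That is 33.3%, 46.7% and 53.3% called, beside 22.1%, 26.9% and 21.2% of all genes. MPC1 and MPC2 form the carrier that takes pyruvate into mitochondria, the route that competes with LDHA. MPC1 averaged 50.1 CPM in Plasmax, against 121 CPM in HGDMEM, 93.3 CPM in LGDMEM and 78.9 CPM in EMEM, with log2 fold changes of −1.28 (adjusted p = 2.85e-06), −0.90 (adjusted p = 0.000166) and −0.66 (adjusted p = 0.00235). MPC2 fell by 1.18, 1.05 and 1.04 on the log2 scale against HGDMEM, LGDMEM and EMEM. The pyruvate dehydrogenase kinases restrain the entry of pyruvate into the citric acid cycle. Of these PDK3 fell by 1.54, 1.89 and 1.19 in the same comparisons. PDK1 fell against LGDMEM by 1.15 (adjusted p = 0.00438) and was at 0.12 (adjusted p = 0.792) against HGDMEM and −0.65 (adjusted p = 0.0847) against EMEM. PDK2 fell against EMEM by 0.77 (adjusted p = 0.0237) and was at −0.59 (adjusted p = 0.0682) against HGDMEM and −0.37 (adjusted p = 0.284) against LGDMEM. SLC16A3 of lactate export and MPC1 and MPC2 of mitochondrial pyruvate entry were thus among the genes that fell, whereas SLC16A1 and BSG were not called.

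**Figure D5:**
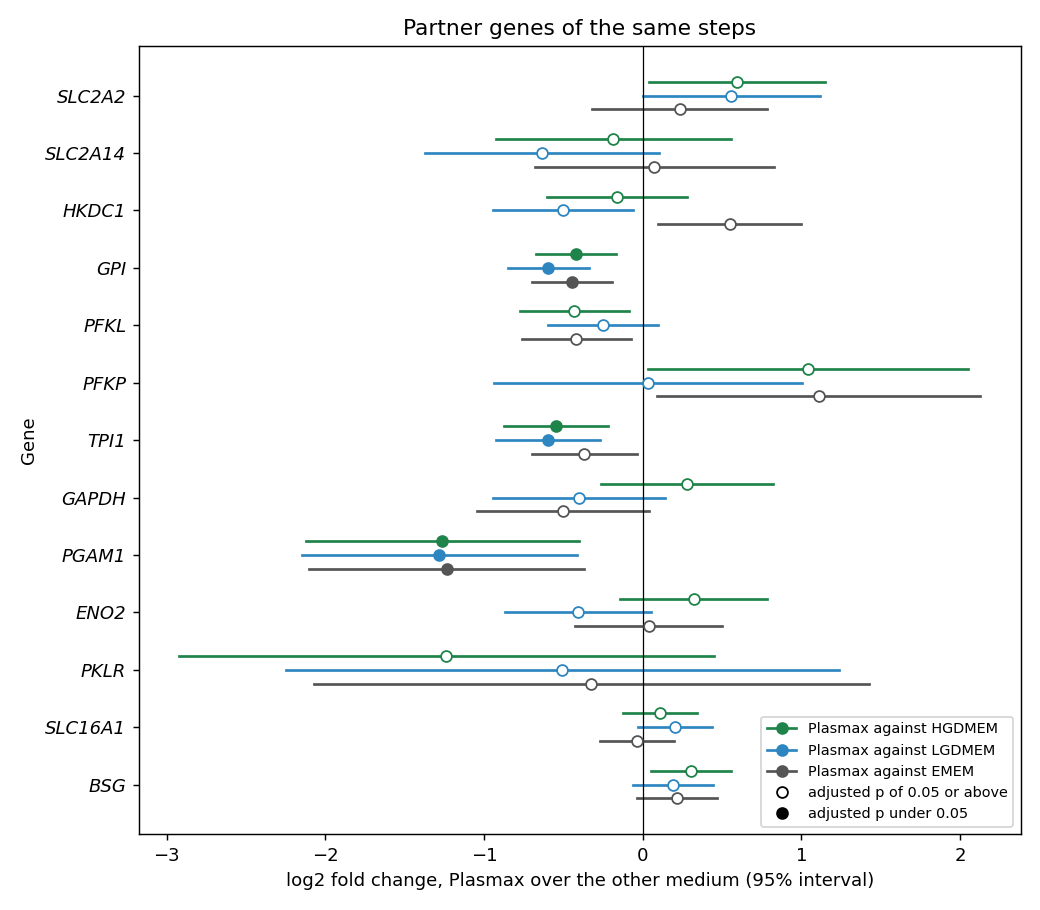
Log2 fold change in Plasmax against HGDMEM, LGDMEM and EMEM of partner genes of the same steps, with 95% intervals and filled points for an adjusted p under 0.05. GPI and PGAM1 are filled left of 0 in all 3 comparisons, while SLC16A1 and BSG stay near 0.

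In neighbouring pathways the genes called stand beside 22.1% of all genes against EMEM, 26.9% against HGDMEM and 21.2% against LGDMEM. Of 15 measured genes of gluconeogenesis and glycogen 4 fell in each Plasmax comparison and none rose, which is 26.7% called, near the share of all genes. PGM1, which interconverts glucose phosphates on the way to glycogen, averaged 25.4 ± 8.8 CPM in Plasmax, 60.4 ± 6.2 CPM in HGDMEM, 60.2 ± 0.3 CPM in LGDMEM and 60.7 ± 2.4 CPM in EMEM (SD, n = 3 each). It fell by 1.25, 1.24 and 1.26 on the log2 scale, with adjusted p of 0.000134, 0.000218 and 0.000194. SLC37A4, the glucose 6-phosphate carrier of the endoplasmic reticulum, and GYS1, the muscle form of glycogen synthase, also fell in each comparison, by 1.17, 1.004 and 1.24 and by 0.82, 1.65 and 0.95. Of 8 genes of the pentose phosphate pathway, which branches off at glucose 6-phosphate, 2 fell against HGDMEM, 3 against LGDMEM and 2 against EMEM, TALDO1 and PGD in all of them. These are 25%, 37.5% and 25% called, with median log2 fold changes of the 8 genes of −0.04, −0.13 and −0.08. TALDO1, transaldolase, fell by 0.68, 0.71 and 0.75 against HGDMEM, LGDMEM and EMEM.

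Of 16 regulators of glycolysis 5 rose and 1 fell in Plasmax against EMEM, 5 rose against HGDMEM and 4 rose against LGDMEM. These are 37.5%, 31.2% and 25% called, beside 22.1%, 26.9% and 21.2% of all genes. HIF1A, the oxygen-regulated subunit of HIF, averaged 150.3 CPM in Plasmax, against 102 CPM in HGDMEM, 105 CPM in LGDMEM and 90.9 CPM in EMEM, with log2 fold changes of 0.56 (adjusted p = 0.00664), 0.52 (adjusted p = 0.0129) and 0.73 (adjusted p = 0.00127). TXNIP, which restrains glucose uptake and is induced by glucose, rose by 2.84, 6.28 and 3.02. It was also the 1 regulator called among the other media, at −3.26 in LGDMEM against EMEM (adjusted p = 0.00126) and 3.44 in HGDMEM against LGDMEM (adjusted p = 0.00057). PPARGC1A, a coactivator of mitochondrial and gluconeogenic genes, rose by 1.47, 1.09 and 1.54, and MLXIPL, also called ChREBP, fell against EMEM by 1.08 (adjusted p = 0.0383). MYC, named after its values were seen, was at 0.36, 0.21 and 0.22 and was not called.

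Of the 24 HIF targets outside glycolysis 4 rose and 3 fell in Plasmax against EMEM, 4 rose and 3 fell against HGDMEM, and 1 rose and 7 fell against LGDMEM. These are 29.2%, 29.2% and 33.3% called, beside 22.1%, 26.9% and 21.2% of all genes. Without LGDMEM 3, 4 rose and 4 fell against EMEM, 4 rose and 6 fell against HGDMEM, and 1 rose and 4 fell against LGDMEM. In that setting 24.3%, 28.9% and 20.7% of all genes were called. Among called targets with a mean of at least 10 CPM, the greatest changes against HGDMEM and against EMEM included rises of MXI1 (1.62 and 1.59) and DDIT4 (1.52 and 1.04). With all libraries, the 3 falls against HGDMEM were BNIP3 (−0.91), FAM162A (−0.88) and LOX (−4.11). Those against EMEM were BNIP3 (−0.94), P4HA2 (−0.93) and LOX (−3.09). LOX had a mean below 10 CPM, and LOX, FAM162A and P4HA2 were named after their values were seen. Against LGDMEM the greatest changes at a mean of at least 10 CPM were BNIP3 (−1.33, adjusted p = 0.0015), ADM (−1.25, adjusted p = 0.00123) and NDRG1 (−1.21, adjusted p = 0.0463). The call of NDRG1 rests on LGDMEM 3, without which it was at −0.34 (adjusted p = 0.5). The summed level of the list was 1421 to 1472 CPM in Plasmax, 977 to 1476 CPM in HGDMEM, 1188 to 3265 CPM in LGDMEM and 1061 to 1624 CPM in EMEM, so the groups overlapped.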

How the data were processed

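Whole-number counts per gene were deposited by the authors as 1 table of 11546 rows and 12 libraries, with no normalization stated. Per the submitters' processing notes, which give no role or order, the build was hg19/GRCh37 and the tools were featureCounts 1.6.3, STAR 2.7.5b, cutadapt 1.16, limma 3.40.6 and FastQC 0.72. Strand use in counting is not given in the sources used here, so reads of overlapping genes on opposite strands cannot be told apart, and ALDOA, PGK1, ENO1, PKM, LDHA, GAPDH and PGAM1 have processed pseudogenes that can share reads. The 601 rows without a symbol, 2.92% to 3.71% of a library's counts, entered neither library sizes nor tests, and 0 columns belonged to other samples. Deposited totals were 4131093 to 6015796 counts.

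The test of 10945 genes on these counts was the quasi-likelihood test of edgeR 4.0.16 (R 4.3.3, TMM scaling, all 12 libraries, medium alone as the factor). The filter on low counts removed 0 genes, and the biological coefficient of variation was 0.215. P-values were adjusted over all genes by the Benjamini-Hochberg method, with a threshold of 0.05. Each SE is the absolute log2 fold change over the root of its F statistic, and correlations use log2 CPM (prior count 2). The genes and lists were chosen with earlier results of these data known. By rule, all 10 genes, partner genes of the same steps and up to 3 called genes of each pathway list and comparison with a mean of at least 10 CPM are named, and a gene outside this rule is said to be so where it is named. Some genes that the rule names are not reported here.

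The labels use the same replicate numbers in each medium. In 4366 well measured genes (mean log2 CPM over 5), libraries of the same number deviated together by more than 0.1 in correlation for all 3 numbers when HGDMEM was set against LGDMEM (0.246, 0.165 and 0.21) or against EMEM (0.186, 0.11 and 0.124). These are called paired from the data alone. Over all genes no comparison passed that mark. In each comparison 22 alternatives were tried: scaling by upper quartile, by RLE or by library size alone, a mean of at least 5 CPM, no filter, DESeq2 1.42.0, limma voom 3.58.1, the replicate block, rows without a symbol kept, the libraries of the 2 media alone, and each of 12 libraries left out.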

Additional observations from a re-analysis of the deposited data

How the results depend on the processing

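Over the 10 genes, 6 pairwise comparisons and 22 alternatives, 1320 values were recomputed. Of these 1233 kept their direction and their side of the threshold, 54 lost a call, 15 gained one, 18 changed sign without being called on either side, and 0 reversed a call. Leaving out 1 library at a time gave 4 to 7 genes called for Plasmax against EMEM, 6 to 7 against LGDMEM and 4 to 8 against HGDMEM, 0 to 1 for LGDMEM against EMEM (the 1 is HK2 without LGDMEM 1), 0 for HGDMEM against EMEM and 0 to 2 for HGDMEM against LGDMEM. In the 3 Plasmax comparisons all genes called moved as well, over 1693 to 2663 against EMEM, 1666 to 2277 against LGDMEM and 2256 to 3168 against HGDMEM. The number of all genes called was 2 to 87 for LGDMEM against EMEM, 1 to 45 for HGDMEM against EMEM and 4 to 118 for HGDMEM against LGDMEM. The 87 and the 118 were both reached without LGDMEM 1, a setting in which HK2 passed in these comparisons. In HGDMEM against LGDMEM the 1 called gene, SLC2A3, was lost, leaving 0, with upper-quartile scaling, with rows without a symbol kept and with the libraries of these 2 media alone. DESeq2 gave 2, with HK2 (adjusted p = 0.00699), and called 0.503% of all genes. The cause was not tested. Keeping rows without a symbol gave 4 genes for Plasmax against EMEM, without SLC2A1 (adjusted p = 0.0571) and LDHA (adjusted p = 0.0526), and 5 against HGDMEM, without SLC2A3 (adjusted p = 0.0541). In the test over the 4 media 8 genes were called in every setting run, with 15.4% to 28.2% of all genes called. LDHA in Plasmax was not called by DESeq2 against EMEM (adjusted p = 0.14) or HGDMEM (adjusted p = 0.136), and SLC2A3 against HGDMEM was not called by limma voom (adjusted p = 0.0749).

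With the replicate block, 7 genes were called for Plasmax against EMEM (PGK1 joining, adjusted p = 0.0267), 7 against LGDMEM and 7 against HGDMEM (HK2 joining, adjusted p = 0.0475). Of all genes 2529, 2414 and 3045 were called in these comparisons. The block gave 0, 0 and 1 for LGDMEM against EMEM, HGDMEM against EMEM and HGDMEM against LGDMEM, where 0.137%, 0.210% and 0.137% of all genes were called. It changed no other call of the 10 genes. In the labels the library name of Plasmax 1 comes after those of all other libraries, and whether its number stands for a shared day was not tested.

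The precision is limited by 3 libraries per medium and by depth, since ALDOC in Plasmax rests on 7 to 17 counts per library. The filter on low counts removed 0 genes, so low rows appear to have been left out before deposit by a rule not given in the sources used here, and the totals are those of the deposited rows.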
